A study of Mus musculus with 28 samples.

Results

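Gpx2, Gpr83, Cox7b2, Foxr2, Vrtn, Car4 and Itgam are 7 genes with large differences between Zfp281 knockout (KO) and wild type (WT) cells, described here from RNA sequencing of RGd2 cells, a female line of mouse embryonic stem cells. Gpx2, Gpr83 and Cox7b2 were higher in Zfp281 KO cells at every stage, and Foxr2, Vrtn, Car4 and Itgam were lower. They were picked by symbol from 24116 genes for the size of that difference in these same data, so the Zfp281 KO values of the 7 genes are given as a description without a test. The groups were Zfp281 KO, Ehmt1 KO, Zic2 KO, Ehmt1/Zic2 double KO and WT cells, all carrying a Rex1 reporter (GFPd2 with blasticidin resistance). Cells were collected in 2i, a medium with CHIR99021 and PD0325901 that holds the naive state (called ESC below), or after 2i had been withdrawn (16 h and 32 h for Zfp281 KO cells and their WT cells, 32 h for the other genotypes). Each of the 14 groups had 2 libraries, from 2 KO clones or 2 WT lines. For the Zfp281 KO clones with the WT lines beside them, 12 libraries were made from total RNA after ribosomal RNA depletion (ribo-depleted). The other genotypes, with WT lines of their own, gave 16 libraries of polyA RNA, and levels are not compared between the kits. P-values rest on the spread between the 2 lines or clones within groups. That spread was estimated over all libraries fitted together, not only over the groups compared.

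Depth ranged between 18086421 and 35911590 counts per library for ribo-depleted cells at ESC or 32 h, between 28538287 and 36365192 for those at 16 h, and between 19013882 and 28777604 for polyA RNA. All 8 embryonic stem cell marker genes examined, Pou5f1 among them, had counts in every library. Zfp281 itself was not lower in its KO clones, with a mean of 279 CPM (counts normalised to library size) in KO cells and 270 CPM in WT cells at ESC. The means were 333 CPM in KO cells and 329 CPM in WT cells at 16 h, and 349 CPM in KO cells and 306 CPM in WT cells at 32 h. Ehmt1 counts fell in Ehmt1 KO cells at ESC (log2 fold change −2.03 ± 0.17, where ± is the SE throughout, edgeR adjusted p = 4e-06), while Zic2 did not pass the test in Zic2 KO cells at ESC (0.25 ± 0.39, edgeR adjusted p = 0.89). Which exons the KO lines lack is not stated in the labels, so counts over the whole gene do not check the Zfp281 and Zic2 genotypes, which are named as labelled. The ESC and 32 h libraries of the WT line Zfp281_WT stood apart in the ribo-depleted set. They had a count for 89% and 87% of 1108 olfactory receptor genes, while libraries from the remaining lines at these stages had one for 11.3% to 24.8%. At 16 h the library of this line had one for 8.9%, and the others for 10.6% to 12.5%. More genes were tested at ESC and 32 h (18971) than at 16 h (15139), and the part of the 2 libraries in that was not tested.

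Zfp281 is a zinc finger transcription factor that binds G-rich DNA and is known for its part in the exit from naive pluripotency. The histone methyltransferase Ehmt1 marks silent chromatin, and Zic2 is another zinc finger transcription factor; the series title names both as partners of Zfp281. The 7 genes do not belong to 1 pathway. They comprise a peroxidase (Gpx2), a neuropeptide receptor (Gpr83), a respiratory chain subunit (Cox7b2), 2 nuclear proteins (Foxr2 and Vrtn) and 2 proteins of the cell surface (Car4 and Itgam).

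Because Zfp281 binds G-rich DNA, the promoter windows of the 7 genes were searched for GGGAGGGG on both strands (its reverse complement is CCCCTCCC). Each window runs from 250 bases before a RefSeq transcript start to 50 after it (GRCm38.p6), and Vrtn has 3 such windows. The run was found in 1 window each of Gpr83, Vrtn and Itgam and was not in the windows of Gpx2, Cox7b2, Foxr2 and Car4. The only Foxr2 window (chrX:153118538-153118837) lies inside the gene and does not reach the gene start at 153114581. The Gpr83 window (chr9:14859960-14860259) likewise does not reach the gene start at 14859880. Sequence at those 2 gene starts was not searched. Of all 32851 promoter windows of this length, 12.2% held it. The windows of the 2 genes that were higher in both Zfp281 KO and Ehmt1 KO cells, and 2 of those with the run, are shown 5′ to 3′ on the gene's strand, with the run in capitals. They are Gpx2 (minus strand, chr12:76795505-76795804), Cox7b2 (minus strand, chr5:71548156-71548455), Vrtn (plus strand, chr12:84642646-84642945) and Itgam (plus strand, chr7:128062390-128062689).
Gpx2: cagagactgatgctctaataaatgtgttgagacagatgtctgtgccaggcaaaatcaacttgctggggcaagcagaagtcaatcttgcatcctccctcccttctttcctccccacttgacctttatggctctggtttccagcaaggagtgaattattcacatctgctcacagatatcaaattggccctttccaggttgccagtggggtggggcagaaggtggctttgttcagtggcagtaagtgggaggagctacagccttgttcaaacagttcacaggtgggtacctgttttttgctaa
Cox7b2: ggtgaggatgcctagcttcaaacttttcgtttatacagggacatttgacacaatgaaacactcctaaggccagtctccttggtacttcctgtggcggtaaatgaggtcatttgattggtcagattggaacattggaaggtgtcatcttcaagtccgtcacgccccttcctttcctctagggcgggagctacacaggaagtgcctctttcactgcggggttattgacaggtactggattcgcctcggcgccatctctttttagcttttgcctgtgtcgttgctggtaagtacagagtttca
Vrtn: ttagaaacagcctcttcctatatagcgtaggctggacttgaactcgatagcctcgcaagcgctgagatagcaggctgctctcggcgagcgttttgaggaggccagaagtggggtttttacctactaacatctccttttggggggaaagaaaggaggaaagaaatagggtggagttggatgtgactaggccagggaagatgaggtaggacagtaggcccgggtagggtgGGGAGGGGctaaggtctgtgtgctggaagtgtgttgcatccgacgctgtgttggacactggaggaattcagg
Itgam: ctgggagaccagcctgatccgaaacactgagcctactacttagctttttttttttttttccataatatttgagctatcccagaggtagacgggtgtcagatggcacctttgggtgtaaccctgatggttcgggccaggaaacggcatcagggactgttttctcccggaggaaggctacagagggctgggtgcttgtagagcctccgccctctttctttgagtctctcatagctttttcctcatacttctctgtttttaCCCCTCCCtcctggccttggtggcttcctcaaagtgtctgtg
In the Vrtn window the run began 22 bases before the transcript start, and in the Itgam window 8 bases after it, on the opposite strand. The windows also differed in CpG content, with 0 CpG dinucleotides for Gpx2, 10 for Cox7b2, 10 for this Vrtn window and 6 for Itgam, against a median of 7 over all windows (quartiles 3 and 20). The windows not printed held 24 CpG dinucleotides for Gpr83, 15 for Car4, 3 for Foxr2, and 7 and 11 for the other 2 starts of Vrtn. For Gpr83 and Foxr2 these are counts of the windows inside the gene, not of its start. These matches describe the letters of the windows, since binding was not measured in these libraries.

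In the Zfp281 KO libraries all 7 genes had an adjusted p under 0.05 at all stages, 3 higher and 4 lower, which their choice fixed. Over all genes tested, the same test called 8.5% higher and 5.3% lower at ESC, 15.3% higher and 13.3% lower at 16 h, and 16.6% higher and 11.9% lower at 32 h. The libraries of KO and WT cells did not overlap for any of the 7 genes at any stage; over all genes this held for 30.2% with the KO higher and 23.6% with the KO lower at ESC, for 34.2% and 34.7% at 16 h, and for 34% and 30.6% at 32 h. Of 15134 genes tested at all stages, 426 were at least 2-fold higher and 306 at least 2-fold lower at every stage. Ranked by the smallest of its 3 log2 fold changes, Gpx2 stood 2nd, Cox7b2 5th and Gpr83 24th among the higher genes, and Foxr2 3rd, Itgam 4th, Car4 30th and Vrtn 127th among the lower ones. The list is therefore not the top of that ranking throughout.

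**Figure D1:**
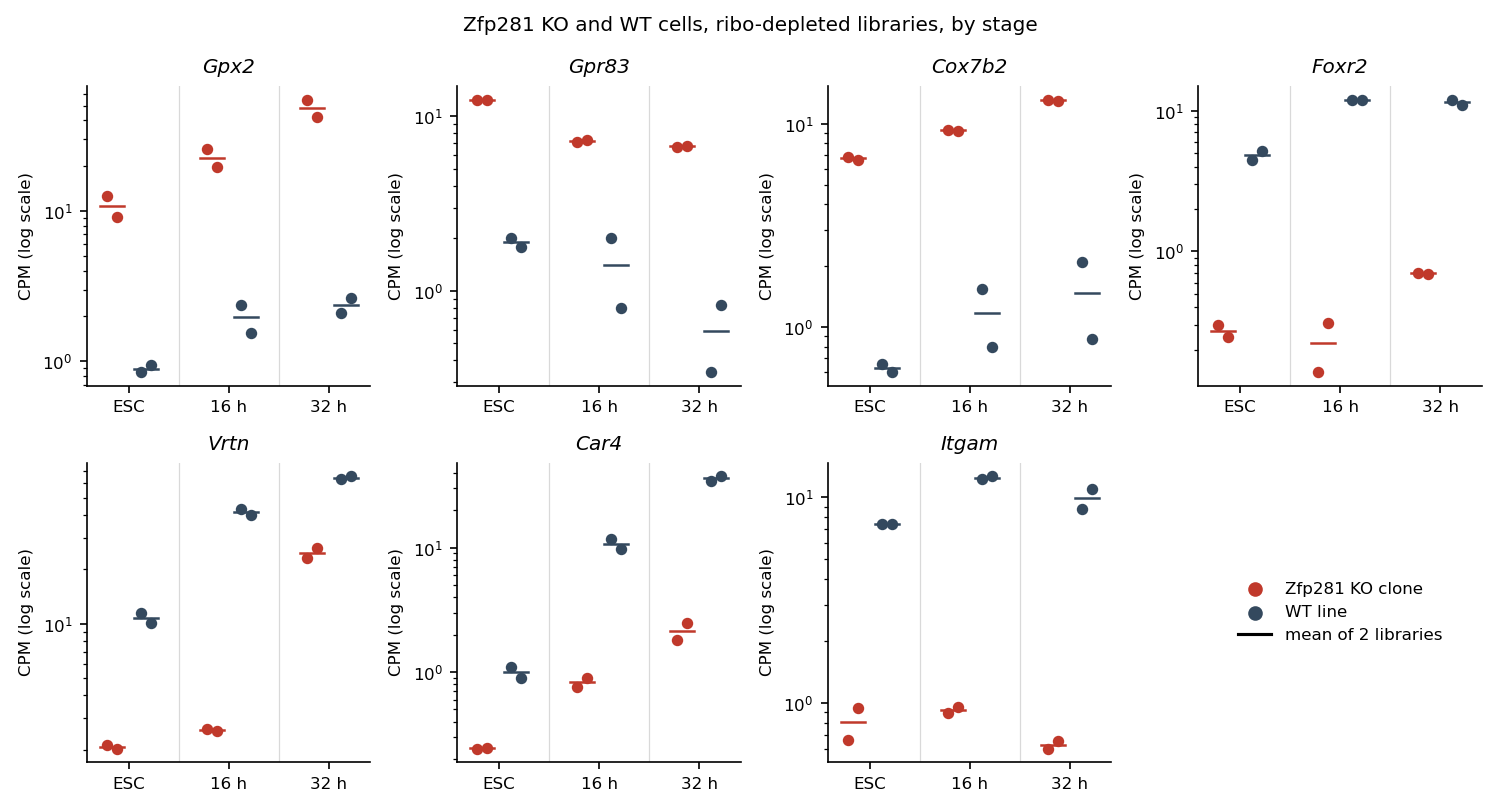
CPM (log axis) of each gene in the 12 ribo-depleted libraries by stage, with Zfp281 KO clones left of WT lines, points for libraries and a bar for the mean of 2. Gpx2, Gpr83 and Cox7b2 lie above the WT libraries at ESC, 16 h and 32 h, and Foxr2, Vrtn, Car4 and Itgam below them; each panel has its own axis range.

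Gpx2 (Entrez 14776; chromosome 12, 76792335 to 76795554, minus strand, GRCm38) encodes a selenium-containing glutathione peroxidase best known from gut epithelium, which reduces hydroperoxides with glutathione. It had 12.5 and 9.04 CPM in Zfp281 KO cells at ESC, against 0.847 and 0.947 CPM in WT cells. At 16 h the values were 25.6 and 19.6 CPM in KO cells, against 2.38 and 1.54 CPM in WT cells. The 32 h values were 54.9 and 42.0 CPM in KO cells, against 2.11 and 2.65 CPM in WT cells. Every KO library was thus above every WT library, and KO levels were highest at 32 h. The log2 fold changes were 3.6 ± 0.25 at ESC, 3.53 ± 0.23 at 16 h and 4.35 ± 0.21 at 32 h.

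In the polyA libraries, which took no part in choosing the genes, Gpx2 rose in Ehmt1 KO cells at both stages. It had 5.46 and 3.85 CPM in Ehmt1 KO cells at ESC, against 0.665 and 0.601 CPM in WT cells, a log2 fold change of 2.87 ± 0.53 (edgeR adjusted p = 0.0017). At 32 h the values were 25.1 and 23.6 CPM in Ehmt1 KO cells, against 5.66 and 5.93 CPM in WT cells (2.07 ± 0.41, edgeR adjusted p = 0.0029). Double KO cells had 5.32 and 9.59 CPM at ESC, a rise of 3.54 ± 0.52 over WT (edgeR adjusted p = 0.00025). At 32 h the double KO clones differed, with 6.91 and 20.5 CPM, and the fold change of 1.24 ± 0.41 (edgeR adjusted p = 0.029) became 0.28 (0.57) without the second clone. It also missed the threshold without either WT library (adjusted p of 0.13 without replicate 1 and 0.11 without replicate 2). Zic2 KO cells had 1.203 and 1.91 CPM at ESC, above both WT libraries, and 2.40 and 2.09 CPM at 32 h, below both. Neither difference passed the test (1.30 ± 0.58, edgeR adjusted p = 0.49, and −1.37 ± 0.44, edgeR adjusted p = 0.31).

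Genes of glutathione supply and of the oxidative stress factor Nrf2, which is known to drive Gpx2, were examined beside it. Of 14 such genes, 4 were higher in Zfp281 KO cells at ESC. At 16 h 5 were higher and 1 lower, and at 32 h 7 were higher. Over all genes tested, 8.5%, 15.3% and 16.6% were called higher at these stages, and 5.3%, 13.3% and 11.9% lower. The median log2 fold change over the 14 genes was 0.30 at ESC, 0.16 at 16 h and 0.31 at 32 h, against −0.04, −0.01 and −0.07 over all genes tested. Nqo1, a quinone reductase, had a mean of 235 CPM in KO cells and 46.0 CPM in WT cells at 32 h (2.35 ± 0.12, edgeR adjusted p = 4.8e-06). Srxn1, which restores oxidised peroxiredoxins, had 65.6 and 26.6 CPM in the same order (1.30 ± 0.12, edgeR adjusted p = 9.7e-05), and Keap1, the inhibitor of Nrf2, had 38.6 and 18.8 CPM (1.04 ± 0.09, edgeR adjusted p = 6.5e-05). In Ehmt1 KO cells at ESC, 3 of the 14 genes were lower and the median was −0.15, against −0.01 over all genes. At 32 h 2 were higher and 2 lower in Ehmt1 KO cells, with a median of 0.06, against 0 over all genes. In that knockout 26.9% of all genes were called at ESC and 26.6% at 32 h. The part of Nrf2 in the Gpx2 values was not tested in either knockout. Of the other glutathione peroxidases, Gpx4, the enzyme for lipid hydroperoxides, was higher in Zfp281 KO cells at 32 h (0.90 ± 0.13, edgeR adjusted p = 0.00077), while at ESC its difference was −0.10 ± 0.13 (edgeR adjusted p = 0.61). Of the gut epithelium markers, 2 of 7 tested were called higher and 0 lower in Zfp281 KO cells at ESC, 0 of 3 at 16 h and 1 of 7 higher at 32 h. Their median log2 fold change was −0.11 at ESC, 0.31 at 16 h and −1.12 at 32 h, so the sum, which the most abundant markers set, and the median differed in sign at ESC and 32 h. The ESC and 32 h medians include the Zfp281_WT libraries that had a count for most olfactory receptor genes. The part of those libraries in the medians was not tested. The summed level over 8 genes was 29.8 to 34.8 CPM in Zfp281 KO libraries at ESC, against 13.6 and 15.7 CPM in WT libraries. At 32 h it was 10.1 to 12.3 CPM in KO libraries, against 4.78 and 8.48 CPM in WT libraries. At 16 h it was 17.1 to 23.5 CPM in KO libraries, against 2.42 to 6.08 CPM in WT libraries. In bulk samples more cells of a type and more RNA per cell cannot be told apart. Vil1, a defining marker of that epithelium, had 0.355 to 2.53 CPM over the ribo-depleted ESC and 32 h libraries. Cdx2, another marker in the sum, had 0.230 to 10.3 CPM in the same libraries and 0.137 to 0.399 CPM at 16 h. In the polyA libraries Cdx2 ranged from 0.101 to 50.8 CPM. No more than 1 marker was at 0 in a Zfp281 KO library except 2 in 1 at ESC. In the polyA libraries at ESC the sum was 32.6 and 25.8 CPM in double KO cells, 35.2 and 81.7 CPM in Ehmt1 KO cells and 86.9 and 90.1 CPM in Zic2 KO cells, against 82.1 and 55.2 CPM in WT cells. At 32 h it was 13.3 and 14.1 CPM in double KO cells, 17.3 and 18.2 CPM in Ehmt1 KO cells and 4.13 and 4.71 CPM in Zic2 KO cells, against 2.81 and 5.02 CPM in WT cells. Of the polyA KO groups, those in which Gpx2 was called higher thus had a higher sum than WT at 32 h and not at ESC. In Zfp281 KO cells, by contrast, the sum was above that of both WT libraries at every stage. The part of gut-like cells in the Gpx2 values was not tested.

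Gpr83 (Entrez 14608; chromosome 9, 14859880 to 14870789, plus strand) encodes a G protein-coupled receptor for PEN, a neuropeptide cut from the precursor Pcsk1n. Its levels were 12.4 and 12.4 CPM in Zfp281 KO cells at ESC, against 2.00 and 1.79 CPM in WT cells. At 16 h they were 7.11 and 7.31 CPM in KO cells, against 2.01 and 0.798 CPM in WT cells. Levels at 32 h were 6.62 and 6.79 CPM in KO cells, against 0.341 and 0.833 CPM in WT cells. KO clones were close to each other at all stages, while the WT lines spread at 16 h and 32 h. On the log2 scale the differences were 2.70 ± 0.24, 2.37 ± 0.36 and 3.55 ± 0.28 at ESC, 16 h and 32 h. The value at 16 h was 3.17 without the line WT, and that at 32 h was 4.25 without the line Zfp281_WT, each resting on the other WT line alone. Pcsk1n, the ligand precursor, was low and higher in KO cells, with a mean of 1.81 CPM in KO cells and 0.506 CPM in WT cells at ESC (1.84 ± 0.46, edgeR adjusted p = 0.029). The precursor convertase Pcsk1 was lower at ESC, with 4.70 CPM in KO cells and 8.89 CPM in WT cells (−0.92 ± 0.23, edgeR adjusted p = 0.029).

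The polyA libraries gave the opposite direction for Gpr83 at ESC. It had 0.550 and 1.16 CPM in Ehmt1 KO cells, against 2.90 and 3.20 CPM in WT cells (−1.84 ± 0.43, edgeR adjusted p = 0.0071). Double KO cells had 0.229 and 0.584 CPM, a difference from WT of −2.90 ± 0.47 (edgeR adjusted p = 0.00048; −3.72 without the second clone). Without Ehmt1 KO replicate 1 the Ehmt1 KO difference was −1.39 and missed the threshold (edgeR adjusted p = 0.079). At 32 h neither Ehmt1 KO cells, with 1.02 and 1.196 CPM, nor double KO cells, with 0.607 and 1.06 CPM, differed past the threshold from WT cells, with 0.789 and 1.04 CPM (0.28 ± 0.44, edgeR adjusted p = 0.68, and −0.14 ± 0.44, edgeR adjusted p = 0.82). Zic2 KO cells had ESC levels of 2.09 and 1.40 CPM and 32 h levels of 0.758 and 0.901 CPM, with no call at either stage (edgeR adjusted p = 0.55 and 0.99).

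Cox7b2 (Entrez 78174; chromosome 5, 71442823 to 71548205, minus strand) encodes a paralogue of Cox7b, a subunit of cytochrome c oxidase, and is best known from testis. Its levels were 6.85 and 6.65 CPM in Zfp281 KO cells at ESC, against 0.656 and 0.598 CPM in WT cells. At 16 h they were 9.32 and 9.22 CPM in KO cells, against 1.54 and 0.798 CPM in WT cells. At 32 h they were 13.1 and 12.9 CPM in KO cells, against 2.08 and 0.870 CPM in WT cells. The KO clones were nearly equal at every stage and above both WT lines. The log2 fold changes were 3.41 ± 0.33 at ESC, 3.00 ± 0.27 at 16 h and 3.11 ± 0.29 at 32 h, and the last was 3.90 without the line WT.

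Among the 7 genes Cox7b2 showed the largest difference in the polyA libraries. The 2 Ehmt1 KO libraries at ESC held 292 and 184 counts of it and the 2 double KO libraries 402 and 261, against 2 and 0 counts in WT libraries. From the summed counts the ratio to WT was 239 in Ehmt1 KO cells (95% interval 65.9 to 1983) and 321 in double KO cells (88.5 to 2655), intervals that cover counting error only. Both differences passed the test (edgeR adjusted p = 3.5e-07 and 1.9e-07). At 32 h the level was 15.9 and 14.3 CPM in Ehmt1 KO cells and 16.0 and 16.5 CPM in double KO cells, against 0.526 and 0.415 CPM in WT cells. The log2 fold changes over WT were 4.99 ± 0.33 (edgeR adjusted p = 1e-06) and 5.10 ± 0.33 (edgeR adjusted p = 5.4e-07). Zic2 KO cells held 1 count in each ESC library, as few as the WT libraries, and had 0.253 and 0.205 CPM at 32 h (−1.02 ± 0.49, edgeR adjusted p = 0.55). The testis genes Prm1 and Tnp1, which encode proteins of sperm chromatin, had at most 1 and 3 counts in any ribo-depleted ESC or 32 h library. Ddx4, another germ cell gene, had 219 to 723 counts in these libraries. Only 4 of the testis markers could be tested. With Zfp281 knocked out, 1 was called higher and 2 lower at every stage. The part of germ-like cells in the Cox7b2 values was not tested. The summed level of the 8 testis markers was 38.3 to 39.2 CPM in Zfp281 KO libraries at ESC, against 42.2 and 40.4 CPM in WT libraries. At 32 h the sum was 58.6 to 60.2 CPM in KO libraries, against 96.2 and 95.9 CPM in WT libraries. Cox7b, the paralogue of Cox7b2 and the subunit used in most tissues, was higher in Zfp281 KO cells by 0.46 ± 0.13 at ESC (edgeR adjusted p = 0.041). Its mean was 545 CPM in KO cells and 397 CPM in WT cells. Of 14 nuclear subunits and isoforms tested, Cox7b included, 2 were higher and 1 lower at ESC, and 5 were higher at 32 h. Beside these and the testis marker counts, 8.5%, 15.3% and 16.6% of all genes were called higher at ESC, 16 h and 32 h. Called lower were 5.3%, 13.3% and 11.9% in the same order.

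Foxr2 (Entrez 436240; X chromosome, 153114581 to 153132861, plus strand) encodes a forkhead transcription factor. It had 0.302 and 0.245 CPM in Zfp281 KO cells at ESC, against 4.43 and 5.18 CPM in WT cells. At 16 h the values were 0.138 and 0.308 CPM in KO cells, against 11.8 and 11.97 CPM in WT cells. The 32 h values were 0.705 and 0.691 CPM in KO cells, against 11.9 and 11.0 CPM in WT cells. No KO library reached 1 CPM, and the log2 fold changes were −4.11 ± 0.22, −5.71 ± 0.28 and −4.03 ± 0.19 at ESC, 16 h and 32 h. The value at 16 h, where the KO libraries held 4 and 9 counts, was −6.39 without the second KO clone. Other X-linked genes moved the opposite way in the same cells, with a median log2 fold change of 0.41 over 683 X-linked genes at ESC, 0.36 over 589 at 16 h and 0.25 over 683 at 32 h, against −0.05, −0.02 and −0.08 over genes of other chromosomes. Foxr1, the other forkhead gene of the same subfamily, was higher at 32 h, with a mean of 5.18 CPM in KO cells and 1.76 CPM in WT cells (1.56 ± 0.30, edgeR adjusted p = 0.0039). Of 17 other forkhead genes tested, 4 were higher and 4 lower at 32 h, against 16.6% higher and 11.9% lower of all genes. Foxh1, a partner of Smad proteins in Nodal signalling, was lower at all stages (−1.41 ± 0.09 at ESC, edgeR adjusted p = 5.8e-05).

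Foxr2 fell in Ehmt1 KO cells at ESC, with 0.642 and 0.528 CPM, against 2.42 and 3.86 CPM in WT cells (−2.40 ± 0.35, edgeR adjusted p = 0.00031). In double KO cells it had 0.917 and 0.827 CPM (−1.84 ± 0.33, edgeR adjusted p = 0.00098). At 32 h double KO cells had 7.52 and 5.47 CPM, against 14.3 and 16.0 CPM in WT cells (−1.22 ± 0.26, edgeR adjusted p = 0.0028). Ehmt1 KO cells had 9.54 and 10.9 CPM at 32 h, below both WT libraries, without passing the test (−0.57 ± 0.26, edgeR adjusted p = 0.12). Zic2 KO cells had ESC levels of 1.36 and 2.33 CPM and 32 h levels of 14.3 and 11.5 CPM (edgeR adjusted p = 0.41 and 0.87).

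Vrtn (Entrez 432677; chromosome 12, 84641019 to 84651455, plus strand) encodes vertnin, a DNA-binding protein known from the control of vertebral number in pigs. Its levels were 2.11 and 2.02 CPM in Zfp281 KO cells at ESC, against 11.4 and 10.02 CPM in WT cells. At 16 h they were 2.59 and 2.53 CPM in KO cells, against 43.1 and 40.0 CPM in WT cells. Levels at 32 h were 23.2 and 26.1 CPM in KO cells, against 63.4 and 65.7 CPM in WT cells. KO levels at 16 h were close to those at ESC, while WT levels were already well above theirs. Its log2 fold changes were −2.38 ± 0.13 at ESC, −4.02 ± 0.13 at 16 h and −1.39 ± 0.10 at 32 h, the smallest of the 7 genes at 32 h. In the polyA libraries Vrtn fell in double KO cells at both stages. At ESC double KO cells had 1.97 and 5.45 CPM, against 14.0 and 16.1 CPM in WT cells (−2.03 ± 0.36, edgeR adjusted p = 0.00095; −2.95 without the second clone). At 32 h they had 31.7 and 28.6 CPM, against 108 and 109 CPM in WT cells (−1.84 ± 0.31, edgeR adjusted p = 0.00068). In Ehmt1 KO cells it had 4.50 and 9.71 CPM at ESC (−1.10 ± 0.34, edgeR adjusted p = 0.031), a call that was lost without Ehmt1 KO replicate 1 (−0.63, adjusted p = 0.25), without either WT library (adjusted p of 0.078 and 0.13), and under 2 of the other settings. At 32 h Ehmt1 KO cells had 63.6 and 56.3 CPM (−0.85 ± 0.31, edgeR adjusted p = 0.056), a difference that DESeq2 called (adjusted p = 0.043). Zic2 KO cells had ESC levels of 9.41 and 9.81 CPM and 32 h levels of 69.2 and 79.8 CPM, below both WT libraries at each stage without passing the test (edgeR adjusted p = 0.58 and 0.64).

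Car4 (Entrez 12351; chromosome 11, 84957754 to 84966054, plus strand) encodes a carbonic anhydrase anchored to the outer cell membrane, which interconverts carbon dioxide and bicarbonate. It had 0.241 and 0.245 CPM in Zfp281 KO cells at ESC, against 1.09 and 0.897 CPM in WT cells. At 16 h the values were 0.760 and 0.888 CPM in KO cells, against 11.7 and 9.69 CPM in WT cells. At 32 h they were 1.80 and 2.46 CPM in KO cells, against 34.4 and 37.6 CPM in WT cells. The log2 fold changes were −2.04 ± 0.30, −3.69 ± 0.22 and −4.08 ± 0.15, so that the difference was smallest at ESC, where WT levels were near 1 CPM. Of 14 other carbonic anhydrase genes tested at 32 h, 1 was higher and 3 were lower, against 16.6% higher and 11.9% lower of all genes. Car2, the cytosolic enzyme, was higher, with a mean of 132 CPM in KO cells and 62.3 CPM in WT cells (1.08 ± 0.14, edgeR adjusted p = 0.00042). The membrane enzyme Car14 was lower, with 3.19 CPM in KO cells and 11.8 CPM in WT cells (−1.88 ± 0.16, edgeR adjusted p = 6.1e-05). None of the polyA KO groups changed Car4 past the threshold, by edgeR, at either stage. At ESC it had 0.0917 and 0.681 CPM in double KO cells, 0.229 and 0.317 CPM in Ehmt1 KO cells and 0.157 and 0.140 CPM in Zic2 KO cells, against 0.951 and 1.10 CPM in WT cells (edgeR adjusted p = 0.20, 0.14 and 0.37 in the same order). Fitted with only the compared groups, Car4 passed in Ehmt1 KO cells (edgeR adjusted p = 0.021 at each stage) and in Zic2 KO cells (edgeR adjusted p = 0.041 at ESC and 0.0021 at 32 h). The double KO difference at ESC was −0.58 without the first clone and −3.42 without the second, not called in either case. At 32 h Ehmt1 KO cells had 16.9 and 14.1 CPM and Zic2 KO cells 15.8 and 16.4 CPM, against 32.1 and 26.0 CPM in WT cells. The double KO clones had 6.84 and 28.4 CPM at 32 h, a difference of −0.72 ± 0.47 (edgeR adjusted p = 0.25) that was −2.06 (adjusted p = 0.0026) without the second clone.

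Itgam (Entrez 16409; chromosome 7, 128062640 to 128118491, plus strand) encodes the integrin alpha chain CD11b, which pairs with the beta chain Itgb2 on myeloid blood cells. It had 0.664 and 0.9504 CPM in Zfp281 KO cells at ESC, against 7.41 and 7.43 CPM in WT cells. At 16 h the values were 0.898 and 0.957 CPM in KO cells, against 12.2 and 12.7 CPM in WT cells. The 32 h values were 0.599 and 0.653 CPM in KO cells, against 8.78 and 11.0 CPM in WT cells. These gave log2 fold changes of −3.19 ± 0.22, −3.74 ± 0.19 and −3.97 ± 0.23. Its partner chain Itgb2 was low in the same libraries, at 0.528 to 1.19 CPM over ESC and 32 h, with a difference between KO and WT cells of −0.04 ± 0.59 at ESC (edgeR adjusted p = 0.97). Among myeloid markers 1 of 8 tested was called higher and 0 lower in Zfp281 KO cells at ESC, 2 of 2 tested were called higher at 16 h, and 1 of 8 higher and 0 lower at 32 h. Over all genes 8.5% were called higher at ESC, 15.3% at 16 h and 16.6% at 32 h. The median log2 fold change of the myeloid markers tested was −0.81 at ESC, 1.25 at 16 h and −1.36 at 32 h. The ESC and 32 h medians include the Zfp281_WT libraries that had a count for most olfactory receptor genes. At ESC 0 of the 10 myeloid markers were at 0 in the line Zfp281_WT, against 3 in the line WT and 3 in each KO clone. At 32 h 1 was at 0 in each WT line, and 3 and 1 in the KO clones. The part of the Zfp281_WT libraries in these medians was not tested. The summed level of 10 such markers was 17.8 to 19.4 CPM in Zfp281 KO libraries at ESC, against 9.76 and 15.3 CPM in WT libraries. At 32 h it was 20.7 to 23.4 CPM in KO libraries, against 9.62 and 13.2 CPM in WT libraries. At 16 h it was 21.3 to 22.3 CPM in KO libraries, against 10.9 to 11.3 CPM in WT libraries. Between 1 and 4 of the 10 were at 0 in a KO library and between 0 and 3 in a WT library. Of the defining markers, Spi1 stayed at 0.115 to 0.605 CPM, Csf1r at 0.141 to 1.89 CPM and Ptprc at 0.0613 to 2.76 CPM in the ESC and 32 h libraries. Of 17 other integrin genes tested at 32 h, 5 were higher and 2 lower in KO cells, against 16.6% higher and 11.9% lower of all genes. Itga3, a laminin receptor chain, was lower (−1.37 ± 0.12, edgeR adjusted p = 7.5e-05) and Itga9 was higher (1.30 ± 0.17, edgeR adjusted p = 0.00044).

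In the polyA libraries Itgam was called in double KO cells at ESC and in no other KO group. It had 10.9 and 11.98 CPM in Ehmt1 KO cells and 9.83 and 8.05 CPM in Zic2 KO cells at ESC, against 9.27 and 11.1 CPM in WT cells (0.17 ± 0.22, edgeR adjusted p = 0.60, and −0.19 ± 0.22, edgeR adjusted p = 0.83). At 32 h it had 20.8 and 20.5 CPM in Ehmt1 KO cells and 19.9 and 18.1 CPM in Zic2 KO cells, against 17.8 and 22.1 CPM in WT cells (edgeR adjusted p = 0.90 and 0.98). Double KO cells had 4.998 and 7.93 CPM at ESC, a difference from WT of −0.66 ± 0.22 (edgeR adjusted p = 0.031). That call was lost without double KO replicate 1 (−0.36, edgeR adjusted p = 0.26), without WT replicate 2 (−0.50, adjusted p = 0.17) and when only the compared groups were fitted. At 32 h double KO cells had 13.5 and 16.9 CPM (−0.39 ± 0.21, edgeR adjusted p = 0.15).

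**Figure D2:**
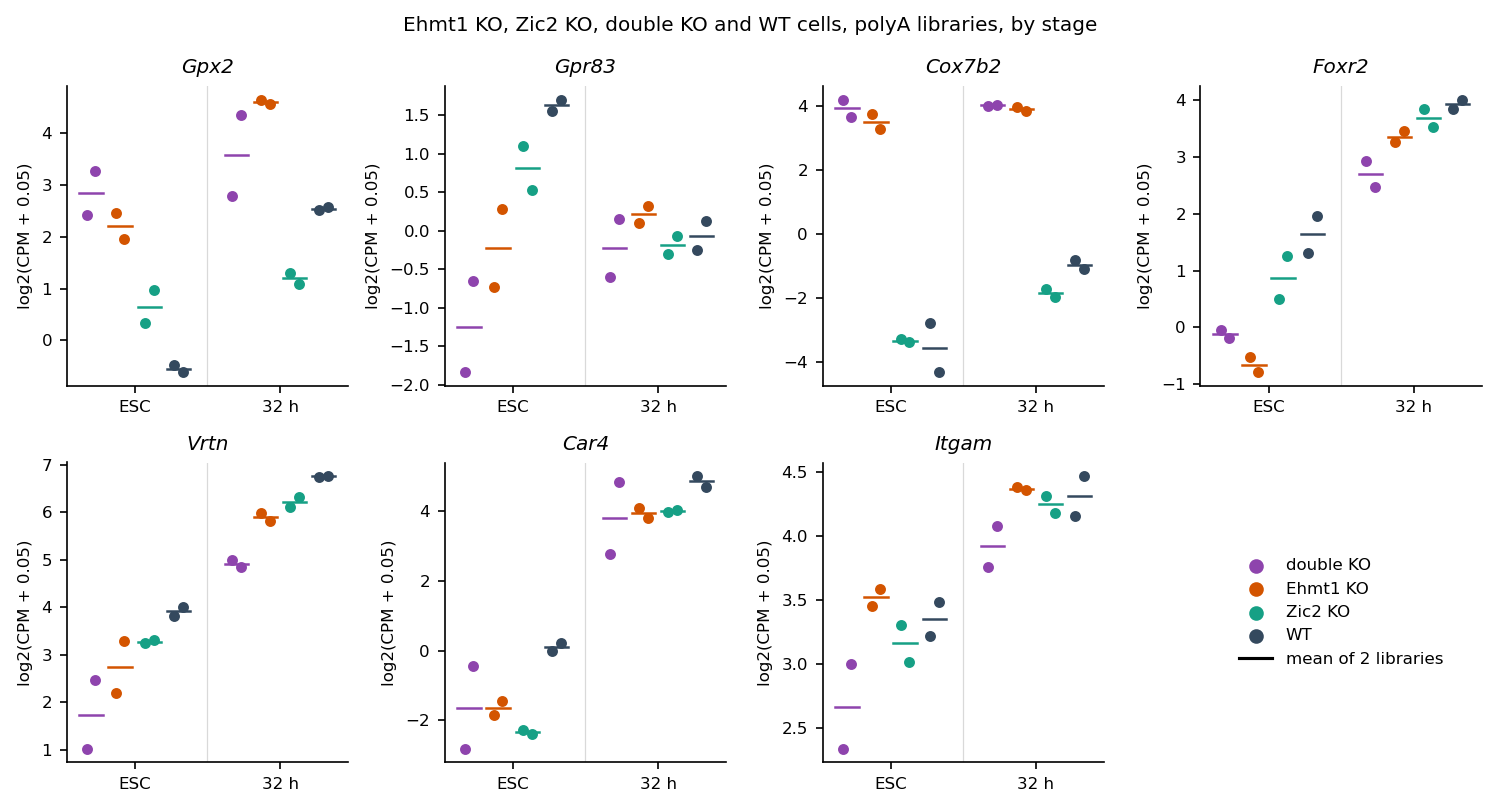
Levels of each gene in the 16 polyA libraries, as log2(CPM + 0.05), with double KO, Ehmt1 KO, Zic2 KO and WT cells from left to right at each stage, points for libraries and a bar for the mean of 2. The Cox7b2 panel shows double KO and Ehmt1 KO libraries far above those of Zic2 KO and WT cells at both stages, and the Itgam panel shows the double KO libraries lowest at each stage; each panel has its own axis range.

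The polyA KO groups share their WT libraries, so their values below stand side by side and are not independent. Counted over the 7 genes, 5 passed the test in Ehmt1 KO cells at ESC (Gpx2 and Cox7b2 higher; Gpr83, Foxr2 and Vrtn lower), where 26.9% of all genes tested were called. At 32 h 2 passed (Gpx2 and Cox7b2, both higher), where 26.6% of all genes were called. In double KO cells 6 passed at ESC (2 higher and 4 lower), against 39.4% of all genes, and 4 at 32 h (2 higher and 2 lower), against 39.1%. The Ehmt1 KO count at ESC fell to 3 without Ehmt1 KO replicate 1, and that at 32 h was 4 when only the compared groups were fitted. In Zic2 KO cells edgeR called 0 of the 7 at both stages, where 0.274% of all genes were called at ESC and 0.0766% at 32 h. DESeq2 also called 0 at each stage, and 3 and 1 of the 7 genes had an unadjusted edgeR p under 0.05 at ESC and 32 h. Set beside the Zfp281 KO values, Gpx2 and Cox7b2 were higher and Foxr2 and Vrtn lower in Zfp281 KO, Ehmt1 KO and double KO cells at ESC, whereas Gpr83 was higher in Zfp281 KO cells and lower in the other 2.

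**Figure D3:**
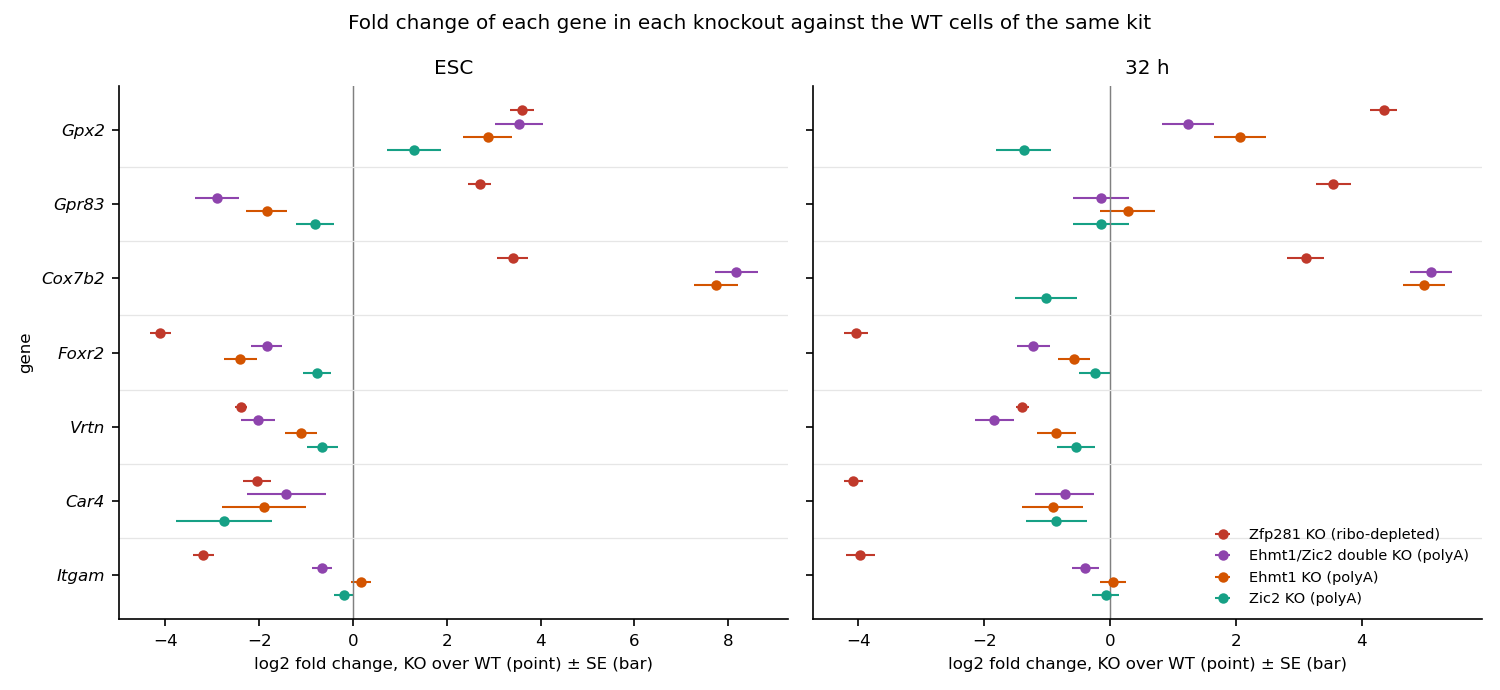
Log2 fold change (KO over WT, point) and its SE (bar) of each gene at ESC and 32 h, for Zfp281 KO cells in the ribo-depleted libraries and for double KO, Ehmt1 KO and Zic2 KO cells in the polyA libraries. Points for Cox7b2 at ESC rest on 2 counts in the polyA WT libraries, and its Zic2 KO point at ESC is not drawn; Itgam lies between −0.66 and 0.17 in the polyA KO cells over both stages and Gpr83 between −0.14 and 0.28 at 32 h, while in Zfp281 KO cells Itgam lies at −3.19 and −3.97 and Gpr83 at 2.70 and 3.55.

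Direct comparisons between KO genotypes were added after the values had been seen. Ehmt1 KO cells differed from Zic2 KO cells at ESC in 3 of the 7 genes, where 26.9% of all genes were called. These were Gpx2 (1.57 ± 0.47, edgeR adjusted p = 0.026), Cox7b2 (476 summed counts in Ehmt1 KO cells and 2 in Zic2 KO cells, edgeR adjusted p = 3.9e-07) and Foxr2 (−1.65 ± 0.37, edgeR adjusted p = 0.0054). The Gpx2 call was lost without Ehmt1 KO replicate 1 (edgeR adjusted p = 0.15) and without either Zic2 KO library (0.17 and 0.065), and the Foxr2 call without Zic2 KO replicate 2 (0.081). At 32 h Gpx2 (3.44 ± 0.45, edgeR adjusted p = 0.00016) and Cox7b2 (6.01 ± 0.36, edgeR adjusted p = 4.2e-07) differed, against 27.9% of all genes. Double KO cells differed from Ehmt1 KO cells in 0 of the 7 genes at each stage by edgeR, where 0.0957% of all genes were called at ESC and 0.223% at 32 h. DESeq2 called 1 at ESC (Itgam, lower in double KO cells, adjusted p = 0.039) and 0 at 32 h, and 2 genes had an unadjusted edgeR p under 0.05 at each stage. Without the second double KO clone, edgeR called Vrtn (−1.86, adjusted p = 0.038) and Itgam (−1.22, adjusted p = 0.032) at ESC.

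In polyA WT cells all 7 genes differed between 32 h and ESC, 6 higher and 1 lower, where 35.7% of all genes tested were called, 17.9% higher and 17.8% lower. Car4 had the largest log2 fold change at 4.82 ± 0.61 (edgeR adjusted p = 6.6e-05), with 32.1 and 26.0 CPM at 32 h, against 0.951 and 1.10 CPM at ESC. Vrtn rose by 2.84 ± 0.33 (edgeR adjusted p = 3.4e-05), Foxr2 by 2.27 ± 0.28 (edgeR adjusted p = 5.1e-05) and Itgam by 0.97 ± 0.21 (edgeR adjusted p = 0.0034). The 2 genes that were higher in both Zfp281 KO and Ehmt1 KO cells rose as well. Gpx2 gained 3.18 ± 0.53 (edgeR adjusted p = 0.00051), and Cox7b2 had 22 summed counts at 32 h and 2 at ESC, a ratio of 9.62 (95% interval 2.36 to 84.4, edgeR adjusted p = 0.0036). Gpr83 was the gene that fell, with a log2 fold change of −1.73 ± 0.42 (edgeR adjusted p = 0.0063), and its call was lost without WT 32 h replicate 1 (−1.55, adjusted p = 0.064).

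The ribo-depleted libraries, whose values chose the genes, gave the same 2 stages as a description. The log2 fold change of 32 h over ESC was 3.10 in KO cells and 5.14 in WT cells for Car4, 3.57 and 2.58 for Vrtn, 1.34 and 1.26 for Foxr2, and −0.37 and 0.41 for Itgam. It was 2.17 in KO cells and 1.41 in WT cells for Gpx2, 0.95 and 1.24 for Cox7b2, and −0.89 and −1.74 for Gpr83. The WT value of Gpr83 was −2.63 without the line Zfp281_WT and −1.09 without the line WT, and that of Cox7b2 was 0.55 without the line WT. Vrtn and Car4 thus had positive values in KO cells too, and Itgam was the gene with opposite signs in KO and WT cells. Its KO value had an SE of 0.27, and its WT value was 0.14 ± 0.19 without the line Zfp281_WT and 0.57 without the line WT.

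Whether the change at 32 h differed between KO and WT cells was tested in the polyA libraries with a stage by genotype term, also added after the values had been seen. In double KO cells 2 of the 7 genes passed, where 5.29% of all genes were called. The double KO effect on Gpr83 was higher at 32 h than at ESC by 2.76 ± 0.65 (edgeR adjusted p = 0.028), and that on Cox7b2 was lower, the difference being −3.07 ± 0.75 (edgeR adjusted p = 0.033). Each call was lost on leaving out single libraries. In Ehmt1 KO cells edgeR called 0 of the 7, where 1.86% of all genes were called, 3 had an unadjusted p under 0.05 and DESeq2 called 1 (Foxr2, adjusted p = 0.013). In Zic2 KO cells edgeR called 0 of the 7 and 0% of all genes, 1 had an unadjusted p under 0.05 and DESeq2 called 0. With the cell line as a replicate block, Gpr83 (2.14, edgeR adjusted p = 0.014) and Foxr2 (1.81, adjusted p = 0.013) passed in Ehmt1 KO cells, Gpx2 in Zic2 KO cells (−2.66, adjusted p = 0.034) and Gpx2 in double KO cells (−2.41, adjusted p = 0.00081).

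To see whether genes beside the 7 moved with them, the 3 nearest protein-coding genes on each side of each were taken from the RefSeq table, 42 in all, without regard to their values. Of 39 tested at ESC, 7 were called in Zfp281 KO cells, all higher (17.9%, against 13.8% of all genes). At 16 h 6 of 30 were higher and 3 lower (30%, against 28.6%), and at 32 h 9 of 39 were higher and 2 lower (28.2%, against 28.5%). Called shares of the neighbours at 16 h and 32 h were thus near those of all genes. The neighbours of Foxr2 are X-linked, and X-linked genes had median log2 fold changes of 0.41, 0.36 and 0.25 at ESC, 16 h and 32 h. Genes of other chromosomes had −0.05, −0.02 and −0.08, so the share over all genes is not a like background for those neighbours. The part of the X-linked shift in the neighbour counts was not tested. The KO effect at 32 h differed from that at ESC for 6 of 39, 3 higher and 3 lower (15.4%, against 4.15% of all genes). The count at ESC ranged from 1 without the second KO clone to 23 without the line WT at both stages. It was 2 without the first KO clone and 14 without the WT library of the line WT at ESC alone. At 32 h it was 6 without either KO clone, 18 without the line Zfp281_WT and 26 without the line WT, and at 16 h 5 and 4 without the first and the second KO clone.

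All 6 neighbours of Gpx2 were higher in Zfp281 KO cells at 32 h, where 16.6% of all genes tested were called higher. This locus was singled out after the values of all neighbours had been seen, so its count is a description. The 6 were among the 9 of 39 neighbours called higher at 32 h, and 2 of the 39 were lower. Over all loci together the called share was 28.2%, against 28.5% of all genes. Fntb, a farnesyltransferase subunit whose start lies 45.1 kb away, had a mean of 60.2 CPM in KO cells and 26.9 CPM in WT cells (1.16 ± 0.11, edgeR adjusted p = 7.7e-05). Plekhg3, at 259 kb on the other side, had 50.1 CPM in KO cells and 25.5 CPM in WT cells (0.97 ± 0.08, edgeR adjusted p = 4.9e-05). Churc1, Sptb, Max and Rab15 rose by 0.55, 0.53, 0.52 and 0.31, all far less than Gpx2 itself. At ESC 2 of the 6 were called (Sptb and Fntb), and at 16 h 3 (Sptb, Plekhg3 and Fntb). The count at 32 h was 4 without either KO clone and 5 without either WT library of that stage. At ESC it was 1 and 0 without the first and the second KO clone, and at 16 h it was 0 and 1.

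**Figure D4:**
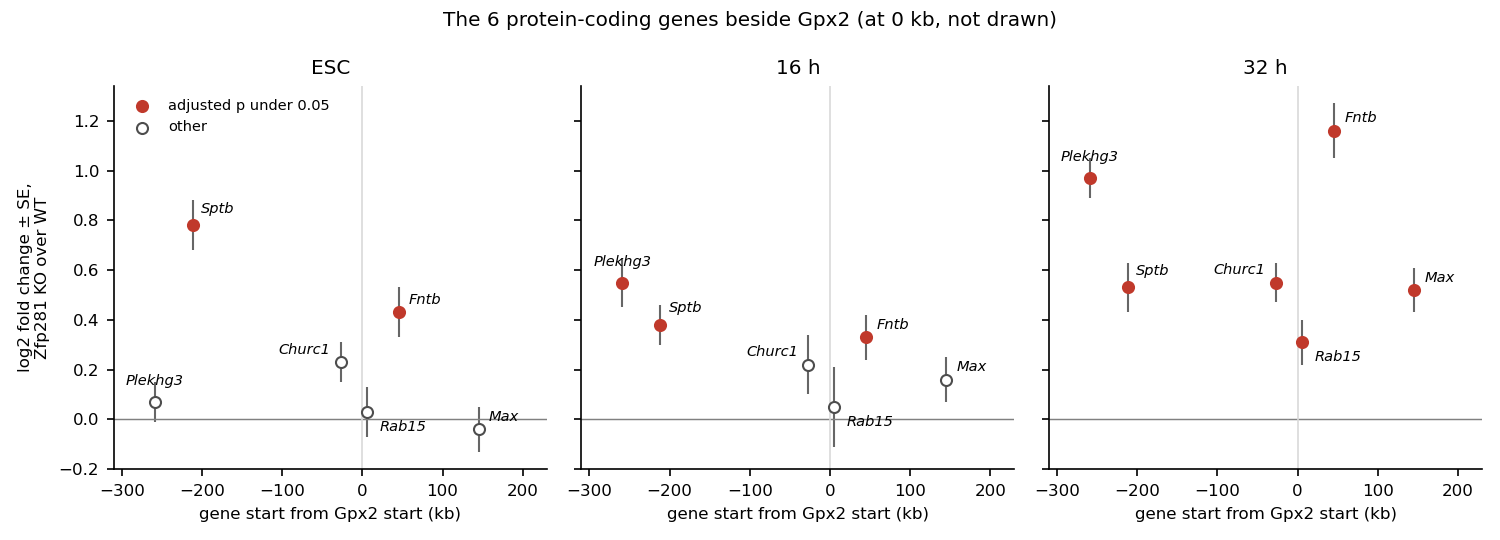
Log2 fold change (Zfp281 KO over WT, point) and SE (bar) of the 6 protein-coding genes nearest to Gpx2 at ESC, 16 h and 32 h, against the distance of their start from that of Gpx2 in kb; filled points have an adjusted p under 0.05. All 6 points are filled at 32 h and lie between 0.31 and 1.16, below the 4.35 of Gpx2. The locus was singled out for display after the values of all neighbours had been seen.

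Around Foxr2 neighbours moved in both directions. Rragb, a Ras-like GTPase of the mTOR pathway whose start is 23.1 kb away, was higher in KO cells at ESC (0.28 ± 0.08, edgeR adjusted p = 0.040, a call lost under 8 of 10 other settings) and lower at 16 h (−0.75 ± 0.11, edgeR adjusted p = 0.0017) and at 32 h (−0.91 ± 0.08, edgeR adjusted p = 5.5e-05). Klf8, a Krüppel-like transcription factor at 111 kb, was higher at 32 h, with a mean of 52.8 CPM in KO cells and 21.8 CPM in WT cells (1.27 ± 0.22, edgeR adjusted p = 0.0033). Beside Gpr83, the channel gene Panx1 was higher in KO cells at ESC, with 15.2 CPM in KO cells and 7 CPM in WT cells (1.11 ± 0.13, edgeR adjusted p = 0.00083). Itgax and Itgad, which encode related integrin alpha chains next to Itgam, had group means of at most 0.723 CPM in any ESC or 32 h group and were not called.

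The genes whose profiles over the 8 ribo-depleted ESC and 32 h libraries lay nearest to those of the 7 were listed by the root mean square distance of centred log2 CPM values. These libraries include those that chose the 7 genes, so the lists are a description. Nearest to Gpx2 were Hormad1, a meiotic chromosome protein, Usp26 and Ctxn3 (distances 0.49, 0.60 and 0.66, in log2 units). Among the nearest to Gpr83 were Tgm3 and Cdh17 (0.29 and 0.39), the second of them one of the gut markers above, and nearest to Cox7b2 were Pramel7, Tdpoz3 and Xist (0.29, 0.35 and 0.37). Foxr2 lay nearest to Lin28a, an RNA-binding protein of early development, Slc1a3 and Wdr86 (0.28, 0.30 and 0.34). For Vrtn they were Kcnj3, Cxcl12 and Crabp2 (0.35, 0.38 and 0.39), for Car4 Pcdh1, Pkdcc and Miat (0.39, 0.61 and 0.63), and for Itgam Jade2, Mapk8ip2 and St8sia3 (0.40, 0.42 and 0.42). Per kilobase of exon, WT levels at 32 h in the ribo-depleted set ran from 18.3 CPM per kb for Car4 and 17.9 for Vrtn through 3.57 for Foxr2, 2.72 for Cox7b2, 1.97 for Itgam and 0.739 for Gpx2 to 0.115 for Gpr83. In KO cells of that stage Cox7b2 and Gpx2 led, with 24.0 and 15.03 CPM per kb, and Itgam was lowest with 0.125. Exon length was the union of exons over all GENCODE transcripts of a gene. For Gpx2 its 3222 bases cover the whole gene, so the values of Gpx2 per kb may be too low and its place in either order is uncertain.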

How the data were processed

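RNA was measured in 28 libraries of mouse embryonic stem cells, 2 in each of 14 groups set from the sample titles. The authors deposited raw counts per Entrez gene, whole numbers for 24116 genes, with the ESC and 32 h libraries in a table of their own and the 16 h libraries in another. GRCm38 (mm10) and edgeR are named in the submitters' processing notes; for the aligner, counter, annotation and strand setting the status is "not given in the sources used here", so counts of overlapping genes, antisense genes and close paralogues (such as Cox7b and Cox7b2) can be mixed. Symbols, positions and promoter windows came from the RefSeq tables of GRCm38.p6, which matched 24061 genes and left 55 unmatched.

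The ribo-depleted ESC and 32 h, the ribo-depleted 16 h and the polyA libraries were fitted separately (18971, 15139 and 15667 genes after filterByExpr, minimum count 10 and minimum total 15). Each comparison was an edgeR 4.0.16 quasi-likelihood test with TMM scaling in R 4.3.3 (limma 3.58.1), two-sided, adjusted over all genes of the fit by the Benjamini-Hochberg method, and called under 0.05. The SE is |log2 fold change| over the square root of the F statistic. Alternatives were DESeq2 1.42.0, DESeq2's size factors, no filter, only the compared groups, the line as a block, and leaving out libraries or WT lines. The script was tested on simulated data.

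Ratios of summed counts have 95% exact intervals that cover counting error only; a group with no more than 3 counts has no fold except as such a ratio. The members and lists were chosen with earlier results of these data known. Genes named from a list were up to 3 with the smallest adjusted p or a defining marker; Itgax and Itgad, outside this rule, were named for their relation to Itgam. 1 gene that the rule on similar profiles allows is not reported here. Titles show that each line was sampled at ESC and 32 h. Deviations from the group means correlated between the stages of a line at 0.84 in ribo-depleted WT, 0.12 in Zfp281 KO, 0.06 in polyA WT, 0.55 in Ehmt1 KO, 0.29 in Zic2 KO and 0.58 in double KO cells. No 2 libraries of a group agreed within sampling noise (chi-square per gene 3.57 to 37.4).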

Additional observations from a re-analysis of the deposited data

Results flagged for a closer look

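The double KO effect on Gpr83 was higher at 32 h than at ESC by 2.76 ± 0.65 on the log2 scale (SE, edgeR adjusted p = 0.028), and that on Cox7b2 was lower, with a difference of −3.07 ± 0.75 (edgeR adjusted p = 0.033), both tested by the interaction of stage and genotype. The Cox7b2 value rests on 2 counts in the WT libraries at ESC. The number of the 7 genes called ranged from 0 to 3 over 13 other settings. The change of Itgam at 32 h over ESC differed between Zfp281 KO and WT cells by −0.78, and the difference was not tested, since the contrast was used to choose the gene. Without the line Zfp281_WT the WT change was 0.14 ± 0.19 in place of 0.41. Both KO libraries at 32 h were below both at ESC, and both WT libraries at 32 h were above both at ESC.

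Among the neighbours, 6 had a Zfp281 KO effect that differed between 32 h and ESC by the interaction test, and all 6 were called with the cell line as a replicate block. Those of Gpx2 were Plekhg3 (0.91 ± 0.11, edgeR adjusted p = 0.0045), Fntb (0.73 ± 0.15, edgeR adjusted p = 0.028) and Max (0.57 ± 0.13, edgeR adjusted p = 0.042), with a larger effect at 32 h. Panx1 beside Gpr83 differed by −0.81 ± 0.18 (edgeR adjusted p = 0.044), and Ubqln2 beside Foxr2, a ubiquilin gene, by −0.88 ± 0.18 (edgeR adjusted p = 0.029). Rragb differed by −1.19 ± 0.11 (edgeR adjusted p = 0.0021) and ranged between −1.35 and −1.11 over 15 other settings, with 1 call lost. Over the same settings the call was lost 2 times for Plekhg3, 5 times each for Fntb and Ubqln2, 8 times for Max and 9 times for Panx1.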

How the results depend on the processing

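No direction of a called value reversed under any alternative. Without the line Zfp281_WT at both stages 18 neighbours were called at 32 h, and without the line WT 23 at ESC and 26 at 32 h, against 7 and 11. With only the compared groups fitted, edgeR called 4 of the 7 genes in Ehmt1 KO cells at 32 h, 1 in Zic2 KO cells at ESC (Car4) and 3 at 32 h (Gpx2, Vrtn and Car4), against 2, 0 and 0. Leaving out 1 library gave 1 to 14 neighbours at ESC, 4 to 12 at 16 h and 6 to 9 at 32 h, and 3 to 5 of the 7 genes in Ehmt1 KO cells at ESC. The cause was not tested. Shares of all genes called were counted in the main fit only. The counts of members or neighbours under other settings therefore have no share of all genes to stand beside. Of 890 polyA fold changes of the 7 genes over all alternatives, 837 stayed on their side of the threshold, 22 passed it newly and 31 lost it. For the KO against WT comparisons no paired analysis was made, because KO clones and WT lines are separate lines that the titles do not pair. With the cell line as a replicate block, 7 genes differed with time in polyA WT cells, and the interaction called 2, 1 and 3 genes in Ehmt1 KO, Zic2 KO and double KO cells, against 0, 0 and 2. With 2 libraries a group and levels under 1 CPM in several of them, the fold changes of Car4 at ESC and of Gpr83 at 32 h have wide errors.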
